A study of Mus musculus with 16 samples.

Results

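The mean response of keratinocytes to TPA was measured over 8 cultures, 4 from wild-type (WT) pups and 4 from pups with the Ts1Rhr segmental trisomy (Ts), each compared with its own untreated culture. All 16 arrays of the series entered: 4 untreated (NT) and 4 TPA-treated arrays for each genotype, with 1 mean change for both genotypes fitted over 8 pairs. Of 6365 genes tested, 707 changed (11.1%), and 537 of them (8.44%) passed in neither genotype when its 4 pairs were tested alone. These 537 genes, which 8 pairs resolved and 4 pairs did not, are the main subject here. Being called only by the larger test follows from how they were chosen and is not a result about them. Cells were skin keratinocytes of FVBN mice harvested at postnatal day 1, and according to the methods each line came from 1 pup that was genotyped individually. Treated cultures received TPA at 0.2 μM for 12 h, and untreated cultures received no TPA. Ts cells carry an additional copy of a stretch of mouse chromosome 16 in every cell, and the WT cultures do not, so the mean over both genotypes is a mean over unlike backgrounds.

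TPA is a phorbol ester that stands in for diacylglycerol and activates protein kinase C. In mouse skin it is the classical tumor promoter: through protein kinase C and the ERK cascade it engages AP-1 transcription factors, drives keratinocytes out of the basal state, and induces proteases, cytokines and cornified envelope precursors. A single time point, 12 h, was measured.

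RNA levels are given on a log2 scale from a variance stabilizing model. On it a change of 1 is close to a doubling for bright probes. Near background a change does not convert to a fold in that way, and its size differed with the processing. Arrays were unequal before normalization: the median raw signal was 156 to 172 on the WT arrays and 198 to 275 on the Ts arrays, and 6371 to 8876 probes of 25697 were detected per array. The cultures expressed all 7 measured keratinocyte markers on all 16 arrays, and their summed raw signal was 93074 to 126409 untreated and 92697 to 114154 with TPA. Melanocyte markers were detected too, 5 of 6 on all 16 arrays, with a summed raw signal of 9917 to 19867 untreated and 10922 to 18025 with TPA. Of 13 fibroblast markers 3 were detected on all arrays and Lum, Pdgfra and Postn on none. The immune markers Ptprc, Cd3e, Cd74, Cd207 and Itgam and the endothelial markers Pecam1, Cdh5, Tek and Emcn were detected on no array. No keratinocyte, fibroblast or melanocyte marker past the detection filter passed the TPA test. In whole cultures, fewer cells of a type and less RNA per cell cannot be told apart.

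Over 8 pairs, limma called 296 genes higher with TPA (4.65%) and 411 lower (6.46%) at an adjusted p below 0.05. Tested alone, the 4 WT pairs gave 167 genes (2.62%) and the 4 Ts pairs 62 genes (0.974%). The 537 genes called by the 8-pair test only were 196 higher and 341 lower. Their changes were small: the median size was 0.59 (0.39 to 1.88), a median fold of 1.5 on the scale used here. For the 170 genes that were also called within a genotype the median size was 0.99. For 519 of the 537 the size was under 1. For the 537 the standard error of the change had a median of 0.15 over 8 pairs, against 0.19 in WT and 0.22 in Ts. The degrees of freedom rose from 10.4 and 10.9 to 15. Of the 537, 313 had an unadjusted p under 0.05 in both genotypes, 221 in exactly 1 and 3 in neither. The response of no gene (0%) differed between Ts and WT at the adjusted threshold in limma's interaction fit. An unadjusted p under 0.05 was found there for 301 of the 6365 genes, about as many as chance alone gives. Among the 537 it was found for 6. Their selection favours so low a number, because the 8-pair fit counts unlike responses of WT and Ts as spread. Neither the absence of adjusted calls nor the 6 shows that the responses were equal.

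**Figure D1:**
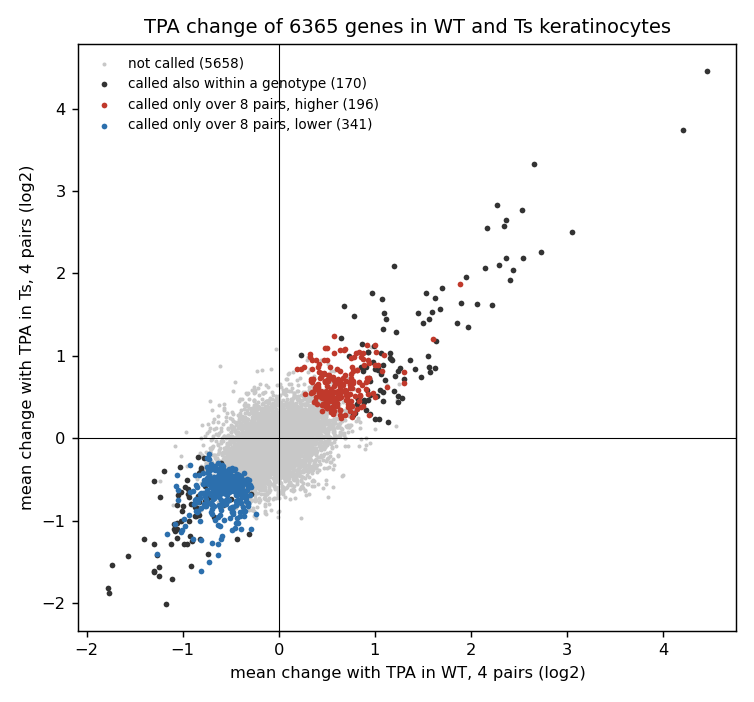
Mean change with TPA (log2) in the 4 WT pairs (x axis) against that in the 4 Ts pairs (y axis) for 6365 genes, each point 1 gene. The 196 red and 341 blue genes called only over 8 pairs lie close to the cloud of 5658 uncalled genes, in the corners where both genotypes changed the same way. Their selection on the mean of both genotypes favours that place. The 170 dark genes reach farther out.

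The cultures did not contribute equally. Of the 537 genes, 87.2% in WT culture 1 and 88.1% in Ts culture 1 changed in the direction of the mean, against 94.6% to 98.5% in the other 6 cultures, and the median size was 0.37 and 0.41 in these cultures against 0.62 to 0.68. Across all genes, WT and Ts cultures of the same number deviated alike from their genotype's mean change, with correlations of 0.39, 0.32, 0.14 and 0.08 for numbers 1 to 4, against -0.21 to 0.10 for unlike numbers. The labels and methods do not say what WT and Ts cultures of 1 number have in common, and the 8 pairs may therefore count for fewer than 8 independent values. With the WT and Ts changes of each number averaged first, the fit over 4 values called 251 genes, and 104 of the 537 stayed called. With the number as a random block, 469 genes were called and 308 of the 537 stayed. Without both cultures numbered 1, an alternative chosen after the data were seen, 773 genes were called and 372 of the 537 stayed. All other counts are from the 8 pairs. All 166 genes followed through the alternatives kept their direction.

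Of all tested genes, 223 were higher in each of the 8 pairs (3.5%) and 353 were lower in each (5.55%). Among the 537, 103 were higher in all 8, 206 lower in all 8, and 228 had at least 1 pair going the other way. This high share follows from the selection on the mean of the same pairs.

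Among genes for proteases that act outside the cell and their inhibitors, 12 of 23 were higher and 2 lower, 60.9% against 11.1% of all genes, with a median change of 0.52 against -0.08 over all genes. Calls within a genotype included the collagenase Mmp13, the stromelysin Mmp3 and the gelatinase Mmp9. The 8-pair test added 7 genes higher and 1 lower. The 12 higher became 6 with the changes averaged by number and 7 with no detection filter. Plau, the urokinase that turns plasminogen into plasmin, rose by 0.94 ± 0.17 (SE, 8 pairs, adjusted p = 0.00358 in limma), with 0.32, 1.50, 0.68 and 1.19 in WT cultures 1 to 4 and 1.62, 1.28, 0.11 and 0.78 in Ts cultures 1 to 4. Its level was 7.43 ± 0.26 (SD, n = 4) untreated and 8.36 ± 0.37 with TPA in WT, and 7.02 ± 0.73 and 7.96 ± 0.27 in Ts. The untreated and treated groups of WT did not overlap, while in Ts the untreated array of culture 3, at 7.88, lay above the treated array of culture 2, at 7.57. Serpinb2, known as plasminogen activator inhibitor 2, rose as well, by 0.94 ± 0.20 (adjusted p = 0.00877), in 7 of 8 pairs. Timp3, an inhibitor of metalloproteinases held in the matrix, fell by 1.02 in all 8 pairs, from 12.28 ± 0.65 to 11.47 ± 0.59 in WT and from 12.35 ± 0.42 to 11.11 ± 0.77 in Ts. Only 1 of its 2 probes was called, and the other changed by -0.63. Plau and Timp3 stayed called under every alternative.

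Mmp10, a second stromelysin named here after its values were seen, had the largest rise of all 537 genes at 1.88 ± 0.43 (adjusted p = 0.0141) but it was uneven. It changed by 3.87 in WT culture 2 and 4.64 in Ts culture 2, by 1.47 to 2.01 in cultures 3 and 4 of both genotypes, and by -0.03 and -0.50 in WT and Ts culture 1. Both cultures numbered 1 already had high untreated levels, 7.18 and 6.83, against 5.03 to 5.66 in the other 6. Klk8 and Klk10, serine peptidases of the outer epidermis, rose by 0.60 ± 0.13 and 0.62 ± 0.15 in all 8 pairs. St14, the membrane protease matriptase, rose by 0.52 ± 0.15 through 1 of its 2 probes, and Adam8, a metalloprotease that sheds surface proteins, by 0.56 ± 0.16. Klk8, Klk10, St14 and Adam8 were likewise named after their values were seen, to complete the list. Prss22, a tryptase-like serine protease, rose by 1.40 ± 0.32 (adjusted p = 0.0123) in all 8 pairs. It was detected on no untreated array and on 4 of 8 treated ones, so on the scale used here it was at least 1.48-fold higher. Its change was as small as 0.49 among the alternatives. WT culture 2, at 4.17, stood far above the other 7 pairs at 0.29 to 1.91.

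Promoter sequence is shown for genes of this kind because TPA acts through AP-1, whose binding site, the TPA response element, carries the letters TGANTCA. These letters read the same on both strands. They were present within 250 bases before to 50 after the start in 5.27% of the 5214 tested genes with a promoter in the RefSeq table, in 24.1% of the 83 genes that were higher and also called within a genotype, and in 7.01% of the 157 genes higher only by the 8-pair test. Among genes lower only by the 8-pair test the share was 4.04% of 272. The share in the genes that 8 pairs added thus lay near that of all tested genes. These are descriptions, a match is not a shown binding site, and with no match nothing follows about the factor. Mmp10 (chr9:7502092-7502391, plus strand, GRCm38.p6), Serpinb2 (chr1:107511173-107511472, plus strand) and Sprr1a (chr3:92485832-92486131, minus strand), a cornified envelope precursor, were among 11 genes of the rising group with the element, which begins 63 bases before the start in Mmp10, 94 before it in Serpinb2, and 146 and 116 before it in Sprr1a. The element is in capitals.
Mmp10: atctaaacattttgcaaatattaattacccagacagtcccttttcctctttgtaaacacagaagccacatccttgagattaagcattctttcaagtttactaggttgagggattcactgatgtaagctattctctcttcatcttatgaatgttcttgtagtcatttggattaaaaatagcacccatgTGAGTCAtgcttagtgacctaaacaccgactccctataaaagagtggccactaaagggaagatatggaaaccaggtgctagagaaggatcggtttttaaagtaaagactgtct
Serpinb2: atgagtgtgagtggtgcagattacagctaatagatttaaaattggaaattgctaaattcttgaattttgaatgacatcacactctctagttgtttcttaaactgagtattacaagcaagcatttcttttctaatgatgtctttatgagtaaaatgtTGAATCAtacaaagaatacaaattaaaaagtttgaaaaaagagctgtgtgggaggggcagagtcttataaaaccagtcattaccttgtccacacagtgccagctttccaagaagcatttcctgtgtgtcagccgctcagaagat
Sprr1a: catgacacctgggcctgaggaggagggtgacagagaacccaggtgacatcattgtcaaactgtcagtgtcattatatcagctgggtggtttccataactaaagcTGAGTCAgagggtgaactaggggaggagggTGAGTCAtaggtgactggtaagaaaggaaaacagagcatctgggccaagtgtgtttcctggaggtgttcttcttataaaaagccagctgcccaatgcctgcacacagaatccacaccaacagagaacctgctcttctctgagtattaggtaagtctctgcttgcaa

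Adhesion genes of basal keratinocytes were a second group, and here the calls came from the 8-pair test alone. Of 13 tested basal keratinocyte and hemidesmosome genes, 4 rose (30.8%, against 4.65% of all genes), none fell, and none of the 4 was called within a genotype. The list's median change was 0.05, against -0.08 over all genes. The rising genes were adhesion genes, and the basal keratins did not rise. Krt5 changed by -0.44 ± 0.15 (adjusted p = 0.0855 in limma) and Krt14 by -0.11. The integrin chain Itga6 changed by 0.09 and was not called. Lamb3, the beta chain of the epidermal laminin to which basal cells anchor, rose by 0.92 ± 0.17 (adjusted p = 0.00305 in limma), from 9.44 ± 0.61 to 10.30 ± 0.31 in WT and from 9.09 ± 0.56 to 10.07 ± 0.20 in Ts. Its change was 0.02 in WT culture 1, whose untreated level of 10.35 was already as high as treated cultures, and 0.36 to 1.46 elsewhere. Itga3, the alpha 3 integrin that binds this laminin, rose by 0.77 ± 0.15 (adjusted p = 0.00535) in all 8 pairs, by 0.03 in WT culture 1 and 0.41 to 1.32 elsewhere. Itgb1, its beta 1 partner, rose by 0.50 ± 0.12 (adjusted p = 0.0167), by 0.29 to 0.81. Cd151, the tetraspanin that holds this integrin, rose by 0.62 ± 0.18 through 1 of its 3 probes, and Ts culture 2 went the other way at -0.48. The list had 2 genes higher without both cultures numbered 1, with the changes averaged by number, and with no detection filter. Lamb3 and Itga3 kept their calls under every alternative, Cd151 under 9 of 21. Itgav, the vitronectin receptor chain counted with the migration genes, rose by 0.67 ± 0.13 (adjusted p = 0.00535) in all 8 pairs and also kept its call throughout. Krt18, a keratin of simple epithelia, rose by 0.58 ± 0.15 (adjusted p = 0.0261), and the other 2 tested markers of Merkel and simple epithelial cells did not pass.

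**Figure D2:**
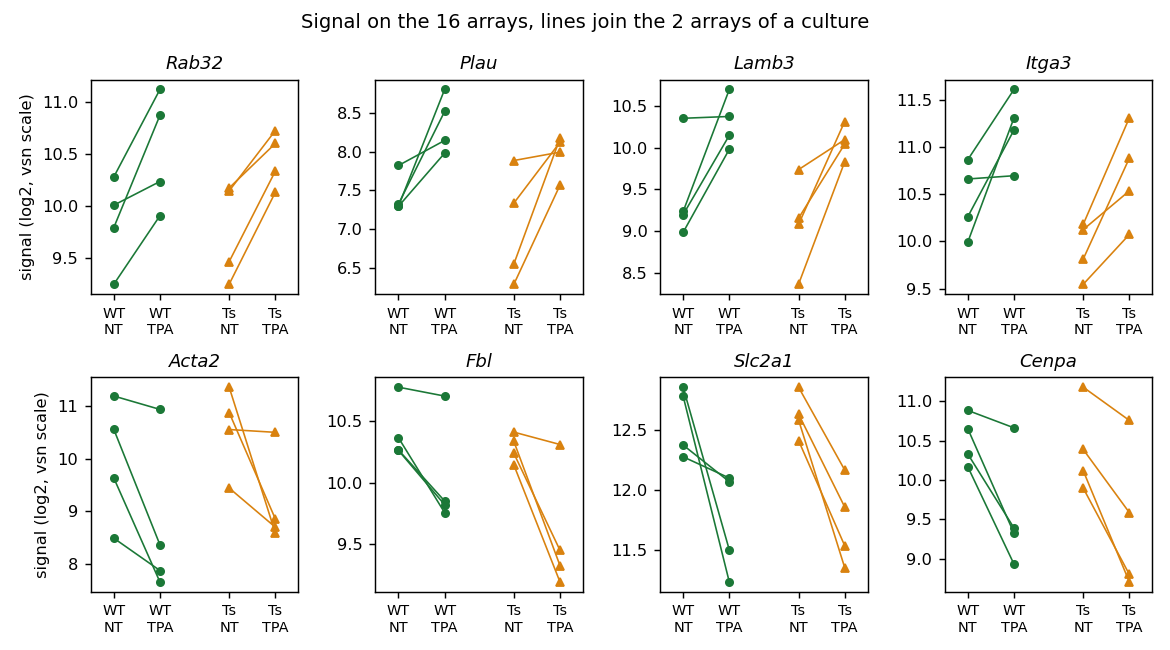
Signal (log2, variance stabilized) of 8 genes called only over 8 pairs on the 16 arrays, green circles for WT and orange triangles for Ts, with a line joining the untreated and treated array of each culture. Rab32, Plau, Lamb3 and Itga3 rise and Acta2, Fbl, Slc2a1 and Cenpa fall in all 8 cultures, with near-flat lines in single cultures such as Lamb3 and Itga3 in WT culture 1.

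Cornified envelope precursors form the cross-linked shell of the outermost keratinocytes. Of 28 tested, 11 rose (39.3%, against 4.65% of all genes) and none fell, but most were already called within a genotype, and the 8-pair test added Sprr1a and Lce1g only. Lce1g, a late envelope protein, rose by 1.03 ± 0.22 (adjusted p = 0.00882) in 7 of 8 pairs and fell to -0.43 in WT culture 2. Sprr1a rose by 0.67 ± 0.17 (adjusted p = 0.0245) in 7 of 8 pairs, with -0.19 in Ts culture 1. Genes of the spinous layer were mixed, with 2 higher and 2 lower of 18 (22.2% called, against 11.1% of all genes). The desmosomal cadherin Dsc1 (0.61 ± 0.18) and the filaggrin-processing protease Asprv1 (0.64 ± 0.13) rose, while the receptor Notch3 (-0.53 ± 0.13) and the transcription factor Grhl1 (-0.84 ± 0.19) fell, the second probe of Grhl1 changing by 0.35. The desmosomal plaque proteins Pkp3 and Jup fell by 0.60 and 0.56. Antimicrobial and alarmin genes gave 6 higher and 1 lower of 15 (46.7% called), and the 8 pairs added the beta defensin Defb14 (0.51 ± 0.15) and the stefin Stfa2 (0.46 ± 0.13), which kept their calls in 9 of 21 and 6 of 19 alternatives.

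Of 21 cytokine, chemokine and NF-kB genes, 7 rose and 2 fell (42.9% called, against 11.1% of all genes), and the 8-pair test added 3 and 1 of these. Il24, a cytokine of the IL-10 family that acts on keratinocytes, rose by 1.03 ± 0.20 (adjusted p = 0.00535), with 0.08, 2.17, 0.41 and 1.02 in the WT cultures and 0.40, 1.39, 1.18 and 1.55 in the Ts cultures. Untreated levels were 7.81 to 9.20 in WT and 7.56 to 8.61 in Ts, and treated levels 8.83 to 10.02 and 8.65 to 9.79, so the groups overlapped in WT and did not in Ts. Il23a, the subunit particular to interleukin 23, rose by 0.64 ± 0.13 (adjusted p = 0.00618) in all 8 pairs, detected on 3 of 8 untreated and 7 of 8 treated arrays. Both kept their calls under every alternative. Nfkb2, the p100 subunit of NF-kB, rose by 0.59 ± 0.17 in 7 of 8 pairs and was named after its value was seen. Cxcl14, a chemokine that resting epidermis makes, fell by 0.52 in all 8 pairs through 1 of 2 probes, the other at -0.10. Tnfrsf11b, the decoy receptor osteoprotegerin, rose by 0.89 ± 0.17 (adjusted p = 0.00459) in all 8 pairs.

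Ribosome biogenesis was a group whose calls came from the 8-pair test alone. Ribosomes are built in the nucleolus, where small RNA-protein particles modify the precursor RNA and assembly factors trim it. Of 35 tested genes, 12 fell (34.3%, against 6.46% of all genes), none rose, and all 12 were called only by the 8-pair test. The median change was -0.37, against -0.08 over all genes, and 34 of 35 changes were below 0. Rrp12, an export factor of the pre-ribosome, fell by 0.75 (SE 0.14, adjusted p = 0.00424 in limma), from 9.24 ± 0.43 to 8.43 ± 0.42 in WT and from 9.13 ± 0.55 to 8.46 ± 0.39 in Ts, in all 8 pairs (-1.33 to -0.14). Fbl, the fibrillarin that methylates ribosomal RNA, fell by 0.55 (adjusted p = 0.0236): by 0.07 in WT culture 1 and 0.10 in Ts culture 1, and by 0.41 to 1.01 in the other 6. Nob1, the nuclease that makes the last cut of the small subunit RNA, fell by 0.55, Gnl3, the nucleostemin, by 0.57, and Gar1, a protein of the pseudouridylating particles, by 0.54, each in all 8 pairs. The other 7, named after their values were seen to complete the group, were Ncl, the nucleolin, Nop2, a ribosomal RNA methyltransferase, Mybbp1a, Utp11, Mrto4, Imp3 and Lyar, with changes of -0.58 to -0.44. None of 52 tested genes for the cytosolic ribosomal proteins themselves passed, and their median was -0.05.

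The ribosome biogenesis count changed with the filter, the fit, the scaling and the cultures kept. It was 14 without WT culture 1 and 13 without Ts culture 1. It was 1 gene with the changes averaged by number and 1 with no detection filter, 6 with the number as a random block, 2 without the pairing, 3 without WT culture 2 and 3 without Ts culture 2, 4 without WT culture 3, 7 without WT culture 4 and 7 without Ts culture 3, 8 with each array centred on its median, and 14 without both cultures numbered 1. Rrp12 alone of the 12 kept its call under every alternative. An E-box, with the letters CACGTG on both strands, at which MYC and related factors can bind, was present in the promoter of 2 of the 9 falling genes with a sequence (22.2%) and in 5 of 29 of the list (17.2%), against 10.9% of tested genes. Among all genes lower only by the 8-pair test the share was 11.4% of 272. The genes of the list are too few to show an excess, and none was tested for. The Nop2 promoter (chr6:125131633-125131932, plus strand, GRCm38.p6, from RefSeq) carries it 60 bases before the start, in capitals, as an example of a gene of this group.
Nop2: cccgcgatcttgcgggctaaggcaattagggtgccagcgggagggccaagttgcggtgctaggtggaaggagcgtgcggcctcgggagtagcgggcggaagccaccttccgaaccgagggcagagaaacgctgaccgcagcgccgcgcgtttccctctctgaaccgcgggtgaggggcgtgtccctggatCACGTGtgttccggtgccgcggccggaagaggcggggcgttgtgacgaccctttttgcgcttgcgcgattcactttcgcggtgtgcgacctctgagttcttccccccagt

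**Figure D3:**
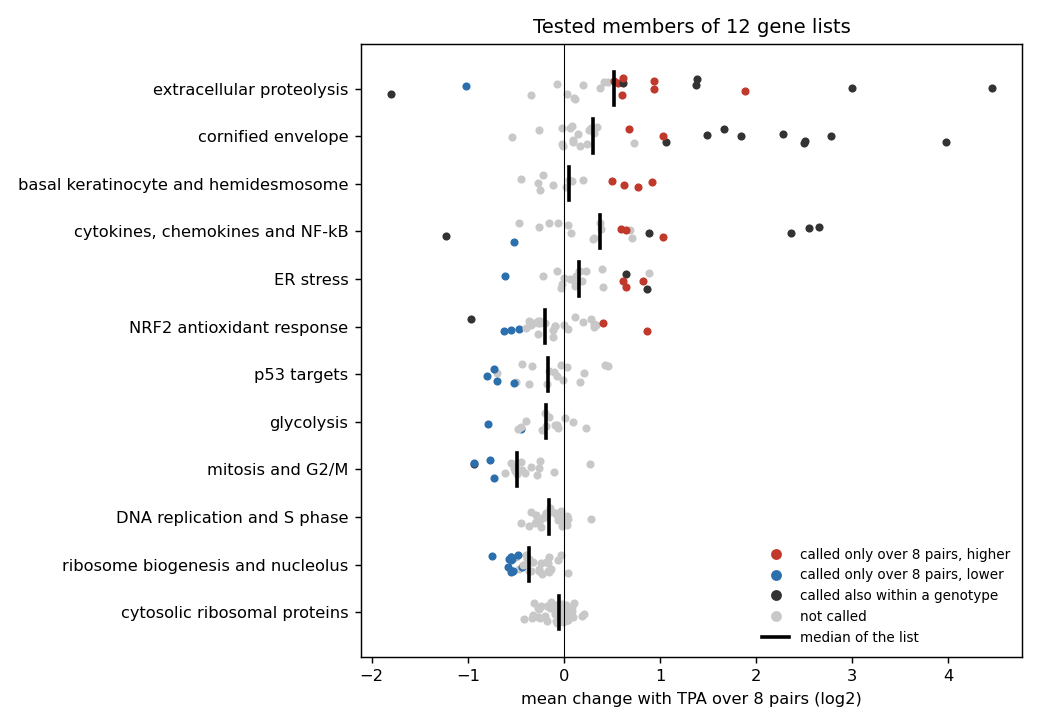
Mean change with TPA over 8 pairs (log2, x axis) of the tested genes of 12 lists, each point 1 gene and each black bar the median of its list. Blue points, genes lower only by the 8-pair test, fill the low end of ribosome biogenesis while the ribosomal protein list below it has no coloured point, and red points stand out in the proteolysis and basal lists.

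Of 19 tested G2/M genes 4 fell (21.1%, against 6.46% of all genes), none rose, and the median change was -0.49, against -0.08 over all genes, with 18 of 19 below 0. Of 30 S phase genes none passed, at a median of -0.16. Cenpa, the histone variant of centromeres, fell by 0.93 (SE 0.15, adjusted p = 0.00142 in limma), from 10.51 ± 0.32 to 9.58 ± 0.75 in WT and from 10.39 ± 0.56 to 9.46 ± 0.95 in Ts. Culture 1 changed least in both genotypes, by -0.22 and -0.42, and the other 6 by -1.41 to -0.80. The mitotic kinase Plk1 fell by 0.77 and the spindle midzone protein Prc1 by 0.72, each close to 0 in Ts culture 1 and -1.97 and -1.89 in Ts culture 2. The G2/M count was 10 without both cultures numbered 1, 8 without Ts culture 1, and 2 without WT culture 2, WT culture 4 or Ts culture 2; it was 2 with the changes averaged by number or with no detection filter and 1 without the pairing. Of 19 G1 genes 1 rose and 2 fell (15.8% called, against 11.1% of all genes), and the 8-pair test added Ccnd3, cyclin D3. Ccnd3 fell by 0.50 in all 8 pairs through 1 of its 2 probes, the other at -0.09. It was called in 9 of 21 alternatives. Cdkn2c, a kinase inhibitor that blocks G1 and was also called in WT, rose by 0.64 ± 0.18 (adjusted p = 0.0406) in 7 of 8 pairs and was called in 10 of 21 alternatives.

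Of 20 tested p53 target genes 4 fell (20%, against 6.46% of all genes) and none rose, all 4 by the 8-pair test only. They were Bbc3, which encodes the death-inducing protein PUMA (-0.80 ± 0.21), Zmat3, an RNA-binding protein (-0.70 ± 0.17), Phlda3, an inhibitor of AKT (-0.73 ± 0.17), and Ddit4, an inhibitor of mTOR that is also induced by hypoxia (-0.52 ± 0.15). Zmat3 fell in all 8 pairs, and the other 3 in 7. The count was 9 without both cultures numbered 1, 0 with the changes averaged by number, 1 without the pairing and 1 without WT culture 4, and 2 without WT culture 3, Ts culture 3 or Ts culture 4.

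Genes of the endoplasmic reticulum stress response gave 5 higher and 1 lower of 23 (26.1% called, against 11.1% of all genes), and the 5 became 3 with the changes averaged by number and 2 without the pairing. The 8-pair test added Chac1, which breaks down glutathione (0.82 ± 0.18, adjusted p = 0.00904), Creld2, a secretory pathway chaperone (0.62 ± 0.12, adjusted p = 0.00607), and Pdia6, a disulfide isomerase (0.64 ± 0.15, adjusted p = 0.0157). All 3 rose in all 8 pairs, and both probes of Creld2 passed, which kept its call under every alternative. The level of Creld2 went from 8.72 ± 0.34 to 9.39 ± 0.29 in WT and from 8.52 ± 0.30 to 9.09 ± 0.33 in Ts. Xbp1, a transcription factor of the same response, went the other way and fell by 0.62 in all 8 pairs (adjusted p = 0.00877). Pdia6 was named after its value was seen. Of 29 NRF2 antioxidant genes 2 rose and 4 fell (20.7% called, against 11.1% of all genes). Hmox1, the heme oxygenase, rose by 0.86 ± 0.16 (adjusted p = 0.00412), from 6.90 ± 0.98 to 7.65 ± 0.63 in WT and from 6.25 ± 0.81 to 7.23 ± 0.52 in Ts, in all 8 pairs (0.06 to 1.77). Fth1, the ferritin heavy chain that stores the iron which heme oxygenase releases, rose by 0.41 ± 0.12 in all 8 pairs and lay at the threshold. Gclm, a subunit of the glutathione-making ligase (-0.63 ± 0.15), Tkt, transketolase (-0.55 ± 0.14), and Keap1, the adaptor that marks NRF2 for destruction (-0.47 ± 0.13), fell. Keap1 passed through 1 of its 3 probes and was called in 7 of 21 alternatives. Of 17 cytosolic heat shock genes 2 fell and none rose (11.8% called, close to the 11.1% of all genes), and the 8-pair test added Hspb8, a small heat shock protein, which fell by 0.70 in all 8 pairs.

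Slc2a1, the main glucose transporter of keratinocytes, fell by 0.87 (SE 0.16, adjusted p = 0.00372 in limma), from 12.57 ± 0.29 to 11.73 ± 0.43 in WT and from 12.62 ± 0.18 to 11.73 ± 0.36 in Ts. Treated and untreated arrays did not overlap in either genotype, with the lowest untreated array at 12.28 in WT and 12.41 in Ts and the highest treated one at 12.10 and 12.17. Pfkp, a phosphofructokinase, fell by 0.79 in all 8 pairs (adjusted p = 0.00215) through 1 of 2 probes, and Pfkl, the liver-type enzyme, by 0.44 in 7. No other of the 15 glycolysis genes passed (13.3% called, close to the 11.1% of all genes). Slc2a6, a transporter related to Slc2a1 placed on lysosomes in macrophages, rose by 0.93 ± 0.15 (adjusted p = 0.00163) in all 8 pairs. Slc2a1, Pfkp and Slc2a6 kept their calls under every alternative, and Pfkl under 7 of 21. Respiratory chain genes (66 tested) and proteasome genes (37 tested) gave no call.

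Lipid enzymes changed in both directions. Of 23 tested genes of fatty acid and lipid handling 1 rose and 2 fell (13% called, close to the 11.1% of all genes). Acss2, which makes acetyl-CoA from acetate, fell by 0.76 in all 8 pairs (adjusted p = 0.00465) and kept its call under every alternative. Scd1, the desaturase of stearate, fell by 0.62 in all 8. The cholesterol enzymes Hmgcs1 and Cyp51 fell by 0.51 and 0.46, 2 of 16 tested (12.5% called, close to the 11.1% of all genes), at a list median of -0.28, while Elovl4, which builds the very long fatty acids of barrier ceramides, rose by 0.59 ± 0.15. Of 22 tested sphingolipid genes 3 rose and 1 fell (18.2% called, against 11.1% of all genes). By the 8-pair test only, the ceramide desaturase Degs1 fell by 0.55. The sphingosine phosphate lyase Sgpl1 and the sphingomyelin synthase Sgms2 rose by 0.67 ± 0.16 and 0.51 ± 0.15. Degs2, the paralog of Degs1, rose by 1.76 ± 0.23 in all 8 pairs and was also called within each genotype. Of 21 alternatives, Sgms2 was called in 6, Cyp51 in 9, Hmgcs1 in 10, Elovl4 in 12, Degs1 in 18, and Scd1 and Sgpl1 in 20. Of 9 retinoid enzymes 2 rose and 1 fell (33.3% called, against 11.1% of all genes). Aldh1a3, which makes retinoic acid, rose by 0.74 ± 0.20 (adjusted p = 0.0296), and the reductase Rdh11 fell by 0.62, both called by the 8-pair test only. Dhrs9 rose by 0.93 ± 0.19 in all 8 pairs and was also called in Ts. Of 13 polyamine and prostaglandin genes 4 rose and 1 fell (38.5% called, against 11.1% of all genes). The 8 pairs added Oaz2, an antizyme (0.54 ± 0.15), Hpgd, which inactivates prostaglandins (0.51 ± 0.14), and Aloxe3, an epidermal lipoxygenase (0.54 ± 0.16), while the spermine oxidase Smox (1.03 ± 0.28) was also called within a genotype, through another of its probes. Aloxe3 rose in 6 of 8 pairs and was called in 10 of 21 alternatives, Oaz2 and Hpgd in 11 and Smox in 15.

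Immediate early and ERK pathway genes changed in small numbers. Of 17 AP-1 and immediate early genes (17.6% called, against 11.1% of all genes) the zinc finger factor Egr1 (0.76 ± 0.19) and Ier3 (0.44 ± 0.12) rose and the serum response factor Srf (-0.67 ± 0.15) fell, all by the 8-pair test only. Of 16 ERK feedback genes and targets (31.2% called), the ETS factors Etv4 (0.63 ± 0.13) and Ets1 (0.49 ± 0.14) rose, and the MAP kinase phosphatases Dusp8 (-0.86 ± 0.17) and Dusp16 (-0.74 ± 0.15) fell. Dusp8 and Dusp16 fell in all 8 pairs and under every alternative, with 1 of 3 probes of Dusp16 at -0.01. Of 21 alternatives, Etv4 was called in 20, Srf in 19, Egr1 in 14, Ier3 in 12 and Ets1 in 9. Marcks, a substrate of protein kinase C that links actin to the membrane, fell by 0.57 in all 8 pairs. None of 7 genes for EGF receptors and ligands passed.

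**Figure D4:**
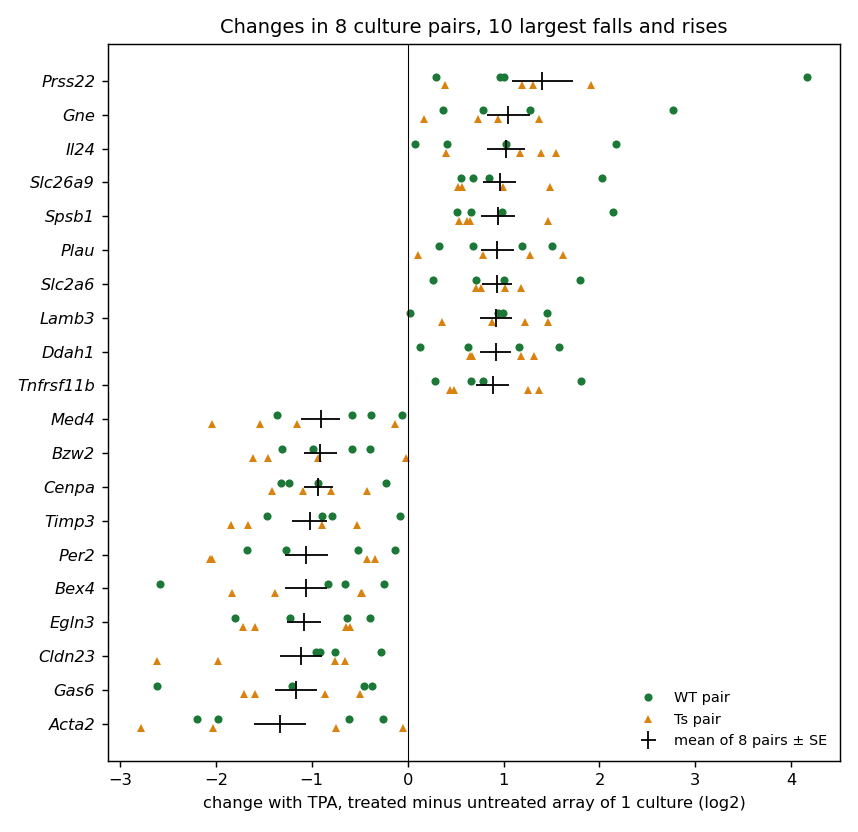
Change with TPA in each culture pair (log2, x axis) for the 10 largest rises and 10 largest falls among the 309 genes called only over 8 pairs that changed the same way in all 8, green circles for the 4 WT pairs, orange triangles for the 4 Ts pairs and a black mark for the mean ± SE. WT and Ts points lie among each other, which the choice of genes that moved alike in all 8 pairs favours. WT culture 2 stands apart at 4.17 for Prss22 and 2.76 for Gne.

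The 10 largest falls among genes lower in all 8 pairs were led by Acta2, the smooth muscle actin, at -1.33 ± 0.27 (adjusted p = 0.00689 in limma). It changed by -0.62, -0.26, -1.98 and -2.20 in WT cultures 1 to 4 and by -0.75, -0.05, -2.03 and -2.78 in Ts cultures 1 to 4, so that the like-numbered cultures of both genotypes went together. The call was lost with the changes averaged by number and without the pairing (adjusted p up to 0.117). Smooth muscle actin is also made by myofibroblasts. Of 8 tested fibroblast markers none passed. The summed raw signal of all 13 on the array, including 3 detected on no array, was 2617 to 4484 untreated and 2654 to 4923 with TPA. The part of such cells in the Acta2 fall was not tested. Gas6, a ligand of TAM receptors, fell by 1.16, Cldn23, a claudin, by 1.11, and Timp3 by 1.02. Egln3, a prolyl hydroxylase that marks HIF for destruction, fell by 1.08 (adjusted p = 0.00153), from 10.66 ± 0.57 to 9.65 ± 0.27 in WT and from 10.30 ± 0.58 to 9.16 ± 0.76 in Ts. Per2, a repressor of the circadian clock, fell by 1.06 (adjusted p = 0.00834), by 1.27 to 2.07 in cultures 3 and 4 and 0.13 to 0.52 in cultures 1 and 2. Bex4, Bzw2 and Med4 fell by 1.06, 0.91 and 0.91, and Cenpa completed the group. Gas6, Egln3 and Bzw2 kept their calls under every alternative. Sizes were less stable than calls, and the ranking is that of the main fit. Among the alternatives the change was as small as -0.45 for Gas6, -0.44 for Cldn23, -0.42 for Bex4 and -0.25 for Med4. For Egln3 and Bzw2 it was at the smallest -0.87 and -0.80.

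The 10 largest rises among genes higher in all 8 pairs were Prss22, Gne, Il24, Slc26a9, Spsb1, Plau, Slc2a6, Lamb3, Ddah1 and Tnfrsf11b. Gne, the bifunctional enzyme that starts sialic acid synthesis, rose by 1.05 ± 0.22 (adjusted p = 0.00870). It was detected on no untreated array and on 5 of 8 treated ones, at least 1.11-fold higher on the scale used here. Slc26a9, a chloride transporter, rose by 0.96 ± 0.17 and was detected on 1 untreated and 6 treated arrays. Spsb1, a substrate adaptor of ubiquitin ligases, rose by 0.95 ± 0.18. Ddah1, which clears a natural inhibitor of nitric oxide synthase, rose by 0.92 ± 0.16 (adjusted p = 0.00232), with treated levels of 7.51 to 8.43 against 6.46 to 7.53 untreated, so that only WT culture 2 with TPA fell within the untreated range. Gne, Spsb1 and Ddah1 kept their calls under every alternative that tested them. Sizes moved more: among the alternatives the change was as small as 0.32 for Gne, 0.34 for Slc26a9 and 0.37 for Slc2a6. For Lamb3 and Il24 it was at the smallest 0.78 and 0.77. The lysosomal protease Ctsl rose by 0.61 ± 0.13 in all 8 pairs.

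Of the 4 disomic genes that the study followed for their TPA response, Rab32 was called only by the 8-pair test. The paper names these 4 among genes that TPA altered in Ts cells only, with a probe filter unlike the one used here. Rab32, a small GTPase of membrane traffic, rose by 0.70 ± 0.13 (adjusted p = 0.00372 over 8 pairs, 0.0887 in WT and 0.188 in Ts, limma), with changes of 0.66, 0.23, 0.84 and 1.08 in WT and 0.89, 0.87, 0.58 and 0.43 in Ts. The mean change was 0.70 in WT and 0.69 in Ts. Elk3, an ETS factor of the ERK pathway, changed by 0.45 ± 0.14 and missed the threshold (adjusted p = 0.0589), in 7 of 8 pairs. Mmp3 and Mmp9 rose by 1.38 ± 0.23 and 2.99 ± 0.44 over 8 pairs and were also called within a genotype. Both were higher in 7 of 8 pairs and changed by -0.22 and -0.23 in WT culture 1.

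At the threshold, the members just inside were Gosr2 (0.45), Msn (0.41), Fth1 (0.41), Fbh1 (-0.44) and Nupl2 (-0.45), and those just outside were Rdh9 (0.70), Bmp1 (0.46), Tnfrsf21 (-0.55), Tmem127 (0.39) and Scmh1 (0.48), named for their place alone. Of the 537 genes 380 were measured by 1 tested probe, 25 by several that all passed, and 132 by several of which some did not pass, 18 of these with another probe of opposite sign. The detection filter bears on few: 7 were detected on no untreated array and 7 on no treated array. In the other direction, 14 genes called in WT alone were not called over 8 pairs, and no gene called in Ts alone was lost.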

How the data were processed

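RNA of 16 cultures was measured on Illumina MouseRef-8 v2.0 bead arrays in 1 color. The authors deposited for 25697 probes a raw intensity with its detection p-value on every array, and separately log2 values made with vsn (versions: not given in the sources used here). For want of the vsn package, an R 4.3.3 script refitted its model to the raw intensities (share kept 0.9, 7 rounds, 10 strata); its values had correlations of 0.958 to 0.964 with the deposited log2 values. A probe was kept when at least 4 of 16 arrays detected it at p no higher than 0.01 (8778, of which 8274 have a gene symbol, for 6365 genes). Of all probes 23978 had 1 symbol in the platform annotation and 1719 had none.

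limma 3.58.1 (lmFit, eBayes) was fitted with the 8 cultures as blocks and 1 TPA term, and within each genotype on its 4 pairs; the difference in response was an interaction term with the same blocks. The Benjamini-Hochberg adjustment ran over every tested probe, and 1 probe with an adjusted p below 0.05 made its gene called; values come from its called probe with the highest mean, otherwise from its probe with the highest mean. For genes with no detection in 1 treatment, "at least" gives the fold against the lowest detected signal of those arrays, or the gene's own signal where that was higher. This bound holds for the scale used here only. The authors' methods pair arrays of 1 genotype by the source of the cells. The deviations of the untreated and treated array of a culture had correlations of 0.41, 0.44, 0.44 and 0.18 in WT and 0.31, 0.18, 0.23 and 0.07 in Ts; for Ts culture 4 another number correlated better (0.10). The number of arrays limits the precision, and p-values measure the spread between these cultures.

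Members, gene lists and alternatives were chosen with earlier results of these data known. Named were the 10 largest rises and falls among genes called only by the 8-pair test that moved alike in all pairs, up to 3 such genes and 2 further called genes of each list, 4 genes followed by the study, and markers; genes outside this rule are marked as named after their values were seen. No set test was run. Promoters (250 bases before to 50 after the first start listed for a gene) came from RefSeq, GRCm38.p6, for 5214 of 6365 tested genes, matched by symbol. The fits and the vsn model were tested on simulated data. Alternatives covered the authors' log2 values, quantile normalization after normexp (offset 50), neqc (offset 16), median centring, 3 detection filters, 1 probe per gene, the replicate number averaged or as a random block (statmod 1.5.0), an unpaired fit, a TPA by genotype term and leaving out each culture.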

Additional observations from a re-analysis of the deposited data

Results flagged for a closer look

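Among 166 named genes, 7 had 1 culture pair whose change stood apart from the other 7 by more than a range test at 95% allows, while chance marks about 1 in 20. In WT culture 2 Prss22 changed by 4.17 and Gne by 2.76. Both were detected on no untreated array. In Ts culture 1 Fst, the activin antagonist follistatin, changed by 1.87, against -0.07 to 0.73 in the other pairs, and Sprr2e, an envelope precursor, by 2.58, the smallest of its 8 rises. In Ts culture 2 Tgfbi, a secreted matrix protein, changed by -2.13. In Ts culture 3 Osgin1, an NRF2 target, changed by -1.68, and in WT culture 4 Tkt by -1.29. Fst, called in 1 of 8 fits with a culture left out and in 9 of 21 alternatives, depended on single cultures more than the others, and Tkt was called in 5 of 8. No named gene moved in opposite directions in all WT and all Ts cultures.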

How the results depend on the processing

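The count of 707 called genes was 348 with no detection filter, 251 with changes averaged by replicate number, 469 with the number as a random block, 285 with no replicate block, and 437 to 719 with 1 culture left out (452 without WT culture 3, 437 without WT culture 4). Genes higher were 178, 134, 201 and 140 in the same order and 194 to 290 with 1 culture left out. Genes lower were 170, 117, 268 and 145, and 243 to 429 (250 without WT culture 3, 267 without Ts culture 3). Genes called only by the 8-pair test (537) were 215, 105, 308 and 245, and 335 to 540 with 1 culture left out, 404 without WT culture 1 and 335 without Ts culture 3. Other settings stayed within 1.5 times. The split of higher against lower calls moved with scaling: 41.9% of called genes were higher, against 47.5% with the authors' values, 50.1% with quantile normalization, 50.7% with neqc and 56.6% with each array centred on its median, so which direction holds more calls depends on the scaling. The interaction gave 0 genes under every alternative that fits it. Of 3468 pairs of a named gene and an alternative, none reversed, 738 lost the call and 2 gained it. Of 128 named genes called only by the 8-pair test, 25 kept the call under all alternatives and 64 in all 8 fits with a culture left out. The cause of these differences was not tested. Without the detection filter 16593 genes share the adjustment. Near background the size of a change differed with the processing, and 1-probe genes have no second measurement.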

Other observations

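Several groups that were put together after the values were seen, and so carry no test, also held genes called only by the 8-pair test. The small subunit processome, the particle that forms the small ribosomal subunit, and the RNA exosome, which trims its RNA, gave 10 lower and none higher of 31 tested genes, with a median change of -0.43, beside 6.46% lower over all genes. Rbm28, Pwp2 and Exosc7 fell by 0.67, 0.73 and 0.74 (adjusted p = 0.00606, 0.00607 and 0.00886 in limma), each in all 8 pairs and under every alternative. Pwp1, Nop14, Wdr75, Ngdn, Rrp1b and Exosc4 were lower too, and Heatr1 was called within a genotype as well.

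Of 9 tested clock genes, Per2, Ciart and Dbp were lower (33.3%, against 6.46% of all genes) and none was higher. Ciart, a repressor that binds the clock's activators, fell by 0.79 (adjusted p = 0.00784) in 7 of 8 pairs and under every alternative. Dbp, a transcription factor driven by the clock, fell by 0.58 in all 8 pairs. It was detected on 6 untreated and 0 treated arrays, at least 1.04-fold lower on the scale used here. The clock time of harvest is not given in the sources used here. Of 17 genes of oxygen sensing and HIF targets, Egln1, Egln3, Slc2a1 and Ddit4 were lower (23.5%, against 6.46% of all genes) and none was higher.

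Of 10 tested genes of sugar nucleotide, serine, one-carbon and proline synthesis 2 were higher and 4 lower (60% called, against 11.1% of all genes). Sialic acid synthesis had Gne and the next enzyme Nans (0.41 ± 0.12) higher, while the serine, one-carbon and proline enzymes Psat1, Shmt2, Aldh1l2 and Aldh18a1 were lower by 0.42 to 0.81. Shmt2, the mitochondrial serine hydroxymethyltransferase, changed by -0.67 ± 0.13 (adjusted p = 0.00527), and Aldh1l2, which oxidizes formyl folate in mitochondria, by -0.81 ± 0.19 through both of its probes. All 4 fell in all 8 pairs.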
